A study of Mus musculus with 2 samples.

Results

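The 5 genes described here, Dazl, Ddx4, Mael, Sycp1 and Sycp3, are genes of the germline, and their CpG methylation was read in mouse embryonic stem cells (ESCs) sorted into a Rex1-high and a Rex1-low population. They were chosen by name, and each locus was the gene with about 5 kb on either side in the mm9 build: chr17:50413000-50438000 for Dazl, chr13:113383000-113449000 for Ddx4, chr1:168126000-168175000 for Mael, chr3:102617000-102746000 for Sycp1 and chr10:87917000-87942000 for Sycp3. The 5 loci held 527 CpG positions listed in at least 1 library, out of 3911490 in all, and 213 of the 1707425 CpGs that had a line of at least 5 methylation calls in both libraries. Of these 213 CpGs, 167 lay in the CpG-rich 5′ ends of the genes and 46 in the rest of the loci.

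Both populations came from E14 ESCs of 129/Ola background that carried a Rex1-dGFP knockin reporter, in which a destabilized GFP is read out from the Rex1 locus, and both were grown on gelatin with LIF and 10% serum. Rex1 (Zfp42) is a marker of the naive pluripotent state, and cells were sorted by the reporter rather than by any methylation measure. The comparison addressed whether the Rex1-high and Rex1-low states differ in DNA methylation. The assay was reduced representation bisulfite sequencing (RRBS), in which DNA is cut with MspI and TaqI, fragments are selected by size and unmethylated cytosines are converted, so that CpGs near cut sites are read and most others are not.

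There was 1 library per state and thus no replicate check. Every test below therefore compared these 2 libraries and not the states, and intervals covered counting error only, since calls on the same read and PCR copies are not independent. The libraries held 60718476 (Rex1-high) and 61024229 (Rex1-low) calls, at 3300733 and 2901301 positions. RNA was not measured in them, so whether the genes were silent was not analysed here.

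Germline genes of this kind carry CpG-rich promoters that are DNA methylated during early development and kept methylated in somatic tissues, and many are transcribed again in germ cells once that methylation is lost. Their products act in germ cell RNA control, transposon repression and meiosis. Several of their promoters carry an E-box, CACGTG, bound by dimers that contain MAX, and an E2F6-type motif, GCGGGAA, through which a variant Polycomb complex is recruited in ESCs.

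The promoter sequences are shown first, because the measured CpGs lie in and around them. Each is the RefSeq sequence of the GRCm38.p6 build, from 250 bases before to 50 bases after the start site, written 5′ to 3′ on the strand of the gene. Coordinates of GRCm38.p6 are given only for these 5 sequences, and all other coordinates are mm9. In the first 4, capitals mark the CpGs with a line of at least 5 calls in both libraries. In Sycp3, whose measured CpGs could not be matched to the sequence, capitals mark CACGTG.
Dazl, chr17:50293571-50293870, minus strand: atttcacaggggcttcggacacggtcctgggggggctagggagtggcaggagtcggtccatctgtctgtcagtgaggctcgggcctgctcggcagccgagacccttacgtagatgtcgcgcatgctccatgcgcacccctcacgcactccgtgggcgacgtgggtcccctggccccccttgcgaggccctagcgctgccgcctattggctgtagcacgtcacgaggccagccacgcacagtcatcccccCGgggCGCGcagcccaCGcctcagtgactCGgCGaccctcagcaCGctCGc
Ddx4, chr13:112652261-112652560, minus strand: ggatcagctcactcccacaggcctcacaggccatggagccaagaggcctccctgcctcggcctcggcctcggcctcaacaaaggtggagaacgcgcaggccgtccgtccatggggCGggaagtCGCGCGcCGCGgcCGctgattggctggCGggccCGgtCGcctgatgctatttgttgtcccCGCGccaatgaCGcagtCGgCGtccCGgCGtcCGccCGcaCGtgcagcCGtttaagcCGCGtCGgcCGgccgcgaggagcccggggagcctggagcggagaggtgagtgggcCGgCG
Mael, chr1:166238695-166238994, minus strand: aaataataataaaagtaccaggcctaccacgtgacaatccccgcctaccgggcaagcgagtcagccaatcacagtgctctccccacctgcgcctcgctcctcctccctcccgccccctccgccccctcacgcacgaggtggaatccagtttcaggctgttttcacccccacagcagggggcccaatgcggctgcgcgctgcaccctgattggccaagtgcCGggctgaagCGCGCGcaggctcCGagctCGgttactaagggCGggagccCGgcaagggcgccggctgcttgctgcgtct
Sycp1, chr3:102936051-102936350, minus strand: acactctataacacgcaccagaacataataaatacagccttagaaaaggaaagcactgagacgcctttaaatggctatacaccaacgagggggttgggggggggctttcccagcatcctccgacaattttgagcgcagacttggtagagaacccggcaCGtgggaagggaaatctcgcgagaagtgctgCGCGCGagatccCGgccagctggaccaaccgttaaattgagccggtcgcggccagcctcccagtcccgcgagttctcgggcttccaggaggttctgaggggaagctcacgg
Sycp3, chr10:88459337-88459636, plus strand: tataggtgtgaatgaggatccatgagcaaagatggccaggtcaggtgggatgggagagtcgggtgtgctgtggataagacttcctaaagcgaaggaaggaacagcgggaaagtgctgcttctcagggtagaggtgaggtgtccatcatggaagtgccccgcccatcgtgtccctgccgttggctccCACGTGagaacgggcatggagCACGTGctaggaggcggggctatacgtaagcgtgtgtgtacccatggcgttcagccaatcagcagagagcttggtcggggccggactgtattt

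The sequences were laid on the mm9 positions by the spacing of their CpGs alone, without converting coordinates. All 36 positions listed within the Ddx4 sequence fell on its CpGs, as did all 17 in Mael and all 15 in Sycp1, whereas the next best offsets on those chromosomes gave 6, 5 and 5 matches. For Dazl, 8 of 8 listed positions fell on CpGs at 1 offset within its locus, where the next best gave 3. Over the whole chromosome the next best gave 5, which did not pass the rule set for such a match, so the Dazl start site rests on a search confined to its locus, a choice made after the data were seen. The placed start sites were mm9 positions 50432946 for Dazl, 113442519 for Ddx4, 168168876 for Mael and 102740024 for Sycp1. No start site was placed for Sycp3, for which 4 listed positions matched at best on the chromosome, at many offsets, and 2 within its locus. Of the CpGs in these sequences, RRBS gave usable values for 8 of 28 in Dazl, 27 of 38 in Ddx4, 8 of 24 in Mael and 5 of 21 in Sycp1.

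The 5′ end of each gene was taken as the 1000-bp stretch with most measured CpGs within the 10 kb at its 5′ side, chosen by position and depth and not by methylation. Mean methylation of the 5′ ends was between 18.4% and 40.4% in Rex1-high and between 29.4% and 61.4% in Rex1-low, and it was higher in Rex1-low for all 5 genes. Across the 167 CpGs of the 5′ ends, 138 were higher in Rex1-low, 27 were lower and 2 were equal, with a median difference of 12.7 percentage points. Over all CpGs tested genome-wide, the mean went from 39.2% in Rex1-high to 54.2% in Rex1-low, with a median difference of 9.09 points. A gain in Rex1-low was thus not particular to these genes. These means combined unlike CpGs. In Rex1-high most CpGs were under 20% in Dazl (43 of 68), Ddx4 (24 of 34) and Mael (18 of 28), but not in Sycp1 (4 of 15) or Sycp3 (5 of 22). In Rex1-low these numbers were 34, 18, 6, 1 and 2. Outside the 5′ ends, the loci were more methylated in both libraries, with means of 53.3% to 75.6% in Rex1-high and 84.0% to 100% in Rex1-low.

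Single CpGs were compared with two-sided Fisher's exact tests, adjusted by the Benjamini-Hochberg method over all CpGs of the genome, and called at an adjusted p under 0.05. Of all CpGs tested, 12.5% were called higher in Rex1-low and 0.239% lower. In the 5′ ends, 19 of 167 CpGs (11.4%) were called higher and 0 lower, and in the rest of the loci 7 of 46 (15.2%) were called higher and 0 lower. Both shares lie near the genome-wide one. Directions here are those of the mean over the lines of a CpG; by summed calls, which the test used, 12.6% of all CpGs were called higher and 0.162% lower. At an unadjusted p under 0.05 the 5′ ends had 40 CpGs higher and 2 lower. The share of all CpGs at that threshold was not computed, so these counts have no background beside them. For 1 of these 2, Mael position 168168855, the summed calls went the other way, from 21 of 33 in Rex1-high to 48 of 54 in Rex1-low. Among CpGs in 2500-bp tiles that held 20 or more measured CpGs, 4.36% were called higher. With each CpG thinned to the depth of its shallower library, 9 of the 213 CpGs of the loci were called higher, a share below the 6.74% of all CpGs.

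**Figure D1:**
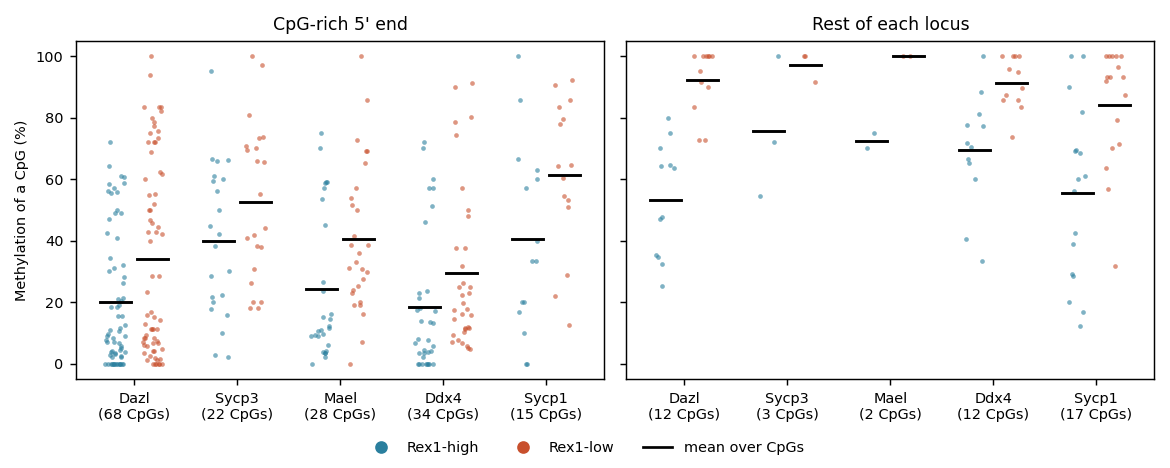
Methylation of each CpG (%, y axis) in the 5′ end (left) and the rest of the locus (right) of the 5 genes, in Rex1-high (blue) and Rex1-low (red); each point is a CpG and the black line is the mean over CpGs. The mean was higher in Rex1-low for each gene and region, while CpGs of the 5′ ends spread from near 0 to 100% in Rex1-low.

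Dazl, an RNA-binding protein needed for germ cell development, had the most densely measured 5′ end, with 68 CpGs at chr17:50432068-50432946, from the start site into the gene. Their mean methylation was 20.04% (SD over CpGs 21.7) in Rex1-high and 34.1% (SD 31.3) in Rex1-low, a difference of 14.1 points and a ratio of 1.70. The stretch was uneven, and the size of the difference depended on how it was summarised. With calls pooled, the shares were 21.7% (95% Wilson interval 19.95 to 23.6) of 1918 calls and 29.1% (27.3 to 31.0) of 2344 calls, a difference of 7.35 points (95% Newcombe interval 4.73 to 9.94). The densest 500 bp gave a difference of 6.40 points, and the window from 2000 bp upstream to 500 bp downstream of the start site gave 33.1. In Rex1-high 43 of the 68 CpGs were under 20% and 0 were at 80% or more, and in Rex1-low these numbers were 34 and 7.

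The unevenness followed distance from the start site. In the 24 CpGs less than 400 bp downstream, mean methylation was 35.7% in Rex1-high and 64.2% in Rex1-low, and all 24 were higher in Rex1-low. The pooled difference was 30.2 points (Newcombe interval 24.96 to 35.3), and 7 of the 24 were called. In the 44 CpGs from 417 to 877 bp downstream, the means were 11.5% and 17.7%. Here the pooled difference was 2.73 points (Newcombe interval 0.0942 to 5.30), 29 CpGs were higher, 13 lower and 2 equal, and 2 were called. The place at which the stretch was divided, 400 bp, was picked after the profile was seen, so the contrast between its parts is a description.

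In steps of 200 bp, Dazl went from 29.5% to 57.4% within 200 bp downstream of the start (18 CpGs, 6 called) and from 52.2% to 81.9% in the next step (5 CpGs, 1 called). Between 400 and 600 bp the means were 13.9% and 28.8% (13 CpGs, 2 called). Between 600 and 800 bp they were 10.0% and 12.1% over 28 CpGs, with a pooled difference of 1.90 points (Newcombe interval -1.01 to 4.68) and 0 called, so no difference was detectable there at this depth. Upstream, 7 CpGs between 600 and 400 bp before the start had means of 55.8% and 90.1%. Dazl therefore held a lowly methylated stretch inside the gene in both libraries, flanked on the upstream side by CpGs that were partly methylated in Rex1-high and mostly methylated in Rex1-low.

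The largest gain at a single Dazl CpG was at position 50432485, 460 bp downstream of the start, where 4 of 20 calls were methylated in Rex1-high and 10 of 12 in Rex1-low (means over lines 19.05% and 83.3%, Fisher's exact test, adjusted p = 0.0129). The CpG with the most negative change by the mean over lines, position 50432413, had 4 of 30 methylated calls in Rex1-high and 3 of 34 in Rex1-low (exact adjusted p = 1). Of the 9 called CpGs, 6 lay between 142 and 193 bp downstream. At position 50432792, 8 of 41 calls were methylated in Rex1-high and 33 of 50 in Rex1-low (exact adjusted p = 0.000685). Neighbouring CpGs such as these can be read together and are not independent.

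**Figure D2:**
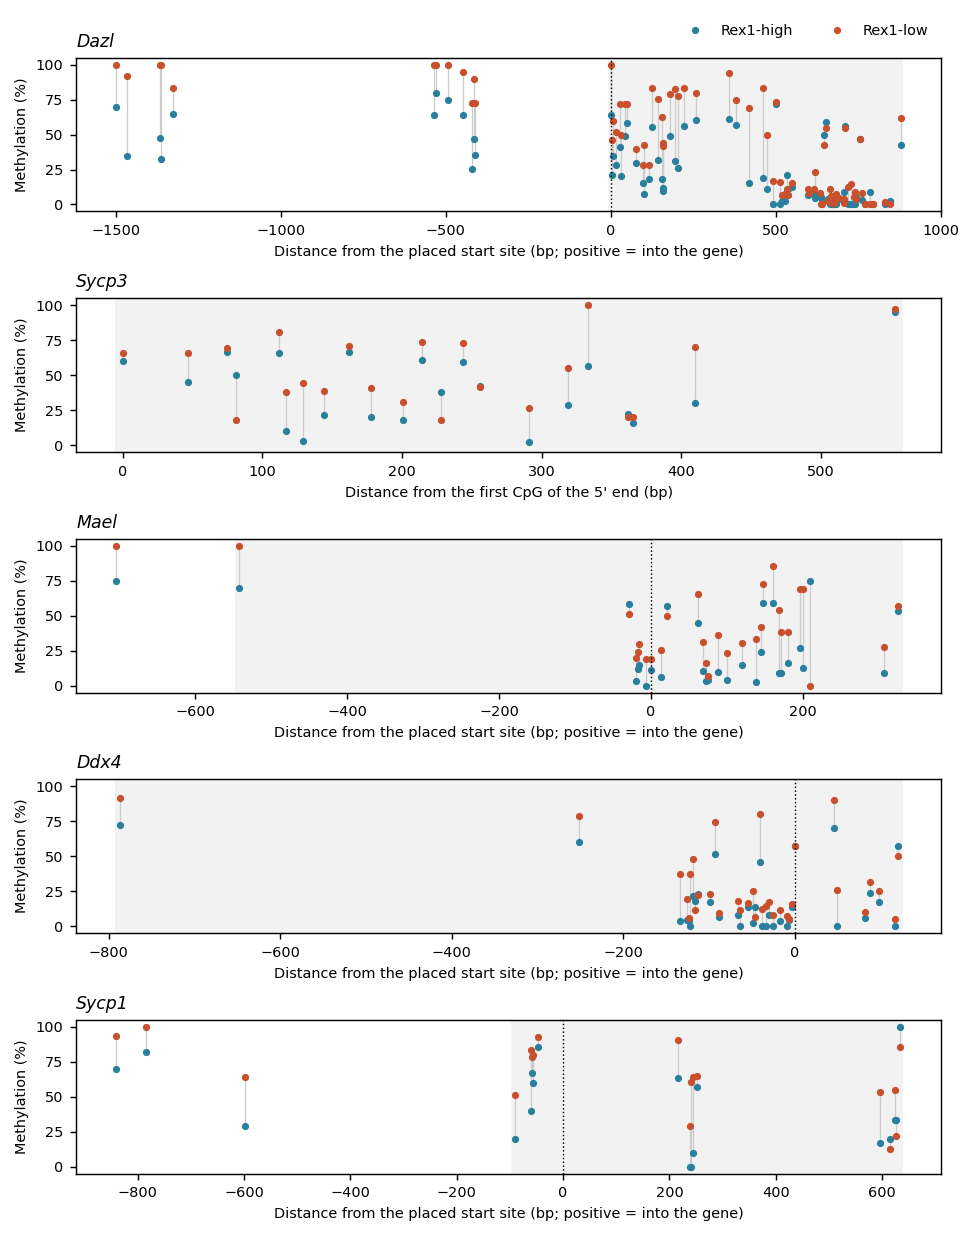
Methylation (%, y axis) of each CpG near the 5′ end against distance in bp (x axis) from the placed start site, or from the first CpG of the 5′ end for Sycp3, in Rex1-high (blue) and Rex1-low (red); grey lines join the values of a CpG, shading marks the 5′ end and the dotted line the start site. In Dazl the values of both libraries fall beyond about 500 bp into the gene, and the gap between the libraries is wide nearer to the start.

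Ddx4, the germ cell RNA helicase also known as Vasa, had the lowest mean at its 5′ end in both libraries, although its intervals overlapped those of Dazl. Its 34 CpGs, at chr13:113442399-113443306, averaged 18.4% (SD over CpGs 22.6) in Rex1-high and 29.4% (SD 26.2) in Rex1-low, a difference of 11.1 points and a ratio of 1.602. Pooled calls gave 20.5% (Wilson interval 18.03 to 23.3) of 911 and 28.0% (25.8 to 30.3) of 1542, a difference of 7.49 points (Newcombe interval 3.98 to 10.9). In Rex1-low 30 of the CpGs were higher and 4 lower, and 3 were called higher. In Rex1-high 24 CpGs were under 20%, of which 8 had no methylated call, and in Rex1-low 18 were under 20% and 0 were without a methylated call. The library depth differed here, with a median of 21 calls per CpG in Rex1-high and 51 in Rex1-low, and its part in the number of CpGs at 0 was not tested.

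The 25 Ddx4 CpGs within 200 bp upstream of the start had means of 12.7% and 23.7%, with a pooled difference of 6.60 points (Newcombe interval 2.97 to 10.1). All 3 called CpGs lay here. At position 113442641, 0 of 21 calls were methylated in Rex1-high, which allows a level of up to 14.3%, and 6 of 16 in Rex1-low (Fisher's exact test, adjusted p = 0.0335). At position 113442560, 27 of 59 and 71 of 89 calls were methylated (exact adjusted p = 0.00165). This CpG lies in CCGG, a cut site of MspI, and CpGs of that kind are described apart below. The most negative change by the mean over lines was at position 113442565, with 5 of 42 methylated calls in Rex1-high and 5 of 75 in Rex1-low (exact adjusted p = 0.873).

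Mael encodes Maelstrom, a protein of the piRNA pathway that represses transposons in germ cells. Its 28 CpGs at chr1:168168550-168169418 averaged 24.2% (SD over CpGs 24.0) in Rex1-high and 40.5% (SD 24.1) in Rex1-low, a difference of 16.3 points and a ratio of 1.67. Pooled calls gave nearly the same difference, 16.2 points (Newcombe interval 12.01 to 20.2), from 22.2% (Wilson interval 19.6 to 25.1) of 877 calls to 38.4% (35.4 to 41.5) of 966. The number of CpGs under 20% was 18 in Rex1-high and 6 in Rex1-low. In Rex1-low 25 CpGs were higher and 3 lower, and 4 were called higher.

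In Mael the 17 CpGs within 200 bp downstream of the start went from 21.1% to 42.2%, with a pooled difference of 24.1 points (Newcombe interval 18.5 to 29.6). The 6 CpGs within 200 bp upstream went from 16.6% to 27.1%, with a pooled difference of 10.5 points (3.56 to 16.9). The largest gain was at position 168168675, with 3 of 24 methylated calls in Rex1-high and 9 of 13 in Rex1-low (Fisher's exact test, adjusted p = 0.0133). Only 8 bp away, position 168168667 showed the most negative change of all 5 genes, with 9 of 13 methylated calls in Rex1-high and 0 of 6 in Rex1-low, which allows a level of up to 50% (exact adjusted p = 0.0705). It did not pass the threshold.

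Sycp1, the transverse filament protein of the synaptonemal complex that holds paired meiotic chromosomes together, had the highest mean of the 5′ ends in both libraries, although its intervals overlapped those of Sycp3. Its 15 CpGs at chr3:102739391-102740115 averaged 40.4% (SD over CpGs 30.7) in Rex1-high and 61.4% (SD 25.01) in Rex1-low, a difference of 21.0 points and a ratio of 1.52. It was also the most thinly read in Rex1-high, with a median of 6 calls per CpG, against 25 in Rex1-low. Pooled calls gave 43.3% (Wilson interval 34.2 to 52.9) of 104 and 64.1% (59.7 to 68.3) of 474, a difference of 20.9 points with a wide Newcombe interval of 10.3 to 30.9. In Rex1-low 12 CpGs were higher and 3 lower, and 0 were called. At an unadjusted p under 0.05, for which no share over all CpGs was computed, 2 were higher and 0 lower.

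The 5 Sycp1 CpGs within 200 bp upstream of the start averaged 54.5% and 76.9%, and the 5 CpGs between 200 and 400 bp downstream 26.0% and 61.7%. The 4 CpGs beyond 600 bp downstream averaged 46.7% and 43.6%, with a pooled difference of -4.21 points (Newcombe interval -25.7 to 16.9), which neither shows nor excludes a change. The largest gain, at position 102739783, was from 0 of 5 to 15 of 25 methylated calls, where the 0 allows a level of up to 60% (Fisher's exact test, adjusted p = 0.172). At position 102739391, with the most negative change, 6 of 6 and 21 of 23 calls were methylated (exact adjusted p = 1).

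Sycp3, a component of the lateral elements of the same complex, had 22 measured CpGs at chr10:87922371-87922924. Their mean was 39.8% (SD over CpGs 24.7) in Rex1-high and 52.6% (SD 25.4) in Rex1-low, a difference of 12.8 points and a ratio of 1.32, the lowest ratio of the 5 genes. Pooled calls gave 41.8% (Wilson interval 37.8 to 46.0) of 552 and 57.5% (54.0 to 61.0) of 751, a difference of 15.7 points (Newcombe interval 10.2 to 21.0). In Rex1-low 18 CpGs were higher and 4 lower, and 3 were called higher. In Rex1-high 5 CpGs were under 20% and in Rex1-low 2, so most Sycp3 CpGs were intermediate in both. Since no start site was placed, it is not known here which of these CpGs lie upstream of the gene.

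Neighbouring Sycp3 CpGs differed from each other within a library. At position 87922500, 1 of 25 calls was methylated in Rex1-high and 23 of 58 in Rex1-low (Fisher's exact test, adjusted p = 0.0107). At position 87922483, only 17 bp away, 18 of 33 and 24 of 31 calls were methylated, and this CpG was not called. By the mean over lines, the largest gain was at position 87922704, from 56.25% to 100%. Its calls were 25 of 32 in Rex1-high and 42 of 42 in Rex1-low (exact adjusted p = 0.0226). By summed calls, the change at position 87922500 was larger. The 2 Rex1-high lines of position 87922704, which the authors' file lists separately, differed, with one at 80% or more and the other at 20% or less. The most negative change was at position 87922452, with 4 of 8 methylated calls in Rex1-high and 4 of 17 in Rex1-low (exact adjusted p = 0.718). Such unlike lines occurred at 14 of the 167 CpGs of the 5′ ends in Rex1-high and at 5 in Rex1-low.

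The rest of each locus held few measured CpGs. They were higher in Rex1-low at 42 of 46, lower at 1 and equal at 3, with a median difference of 30 points. These levels are means over lines, and many of these CpGs had 2 lines in Rex1-high but 1 in Rex1-low. At Sycp1 position 102670384, 37 of 41 and 43 of 43 methylated calls thus counted as 68.6% and 100%. Pooled calls gave differences of 41.5 points in Dazl, 21.1 in Ddx4, 23.9 in Sycp1 and 26.4 in Sycp3. In Mael they gave 17.5 points (Newcombe interval 1.16 to 31.95). As means over lines, Dazl went from 53.3% to 92.1% over 12 CpGs, and Ddx4 from 69.4% to 91.3% over 12. Sycp1, the longest locus, went from 55.5% to 84.0% over 17 CpGs, of which 4 were called higher. Sycp3 had 3 such CpGs, at 75.6% and 97.2%, and Mael had 2, at 72.5% and 100%. These small sets moved with the filter: the Sycp3 difference of 21.6 points became 8.08 over 7 CpGs with a minimum of 1 call and 12.4 over 3 CpGs with a minimum of 10, and the Mael difference of 27.5 became 5.99 over 4 CpGs with lines merged first. At Sycp1, position 102734244, 5779 bp inside the gene, had 12 of 30 methylated calls in Rex1-high and 27 of 29 in Rex1-low (Fisher's exact test, adjusted p = 0.00111). Position 102670418, also inside Sycp1, had the lowest level of these 17 CpGs in both libraries, with 6 of 44 and 13 of 41 methylated calls.

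To set the 5′ ends beside genomic regions of like CpG number, 2500-bp tiles with at least 3 measured CpGs were used. Each tile was tested on its summed calls and called at an adjusted p under 0.05 (Fisher's exact test over all 162599 tiles). A call also needed a change of at least 10 points in the mean over CpGs, so the test and the size rest on unlike measures. Of all tiles 75.5% were called higher in Rex1-low, but this share fell with the number of CpGs measured in a tile: 82.4% of tiles with 3 to 9, 76.2% with 10 to 19, 24.4% with 20 to 39, 2.99% with 40 to 79 and 0.388% with 80 or more. The 5′ ends lay in 9 tiles, of which 7 were called higher and 0 lower, beside 0.0326% of all tiles called lower. Beside all tiles, the count by itself thus lies near the background. By class, the Dazl, Mael and Ddx4 tiles with 20 to 39 CpGs were all called, beside 24.4% of that class. So were the tiles with 10 to 19 CpGs (76.2%), and some but not all of those with 3 to 9 (82.4%). The Dazl tile with 40 to 79 CpGs was not called (2.99%). The place of a tile within its class, given next, depends for some genes on where the tile borders fall.

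The Dazl tile that starts at the promoter side, at 50432501, held 37 CpGs and went from 40.8% to 73.4% (exact adjusted p = 1.14e-35). Its difference of 32.6 points was above that of 96.7% of tiles with 20 to 39 CpGs, whose median difference was 3.93 points. The neighbouring Dazl tile at 50430001, with 43 CpGs, went from 11.4% to 16.5% (exact adjusted p = 0.0958) and was not called. The median difference of its class, tiles with 40 to 79 CpGs, was 1.71 points. With all tile borders shifted, 1 tile held 75 Dazl CpGs and was called, at 15.9 points (exact adjusted p = 5.33e-08).

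The Mael tile, with 29 CpGs, went from 26.0% to 42.6% (exact adjusted p = 9.36e-13), a difference above that of 82.3% of its class. With shifted borders the Mael CpGs fell into tiles of 12 and 17 CpGs, which differed by 19.4 and 14.6 points, above 38.99% and 28.7% of tiles with 10 to 19 CpGs and thus below the median of that class. The main Ddx4 tile, with 27 CpGs, went from 16.7% to 28.3% (exact adjusted p = 0.000971), above 77.2% of the same class. The other Ddx4 tile held 7 CpGs and missed the call by size, at 9.19 points in the mean over CpGs (exact adjusted p = 0.0157). On summed calls these 2 outcomes would change places. The tile of 7 CpGs then changed by 13.2 points. The main Ddx4 tile, with 151 of 773 methylated calls in Rex1-high and 348 of 1328 in Rex1-low, changed by under 10 points. Tiles at Sycp1 and Sycp3 held fewer measured CpGs and fell in classes where most tiles were called. The Sycp1 tiles differed by 20.2 and 23.5 points (exact adjusted p = 0.0254 and 0.00993) and the Sycp3 tiles by 11.8 and 13.3 points (adjusted p = 0.00205 and 7.43e-06), all below the medians of their classes, 24.8 points for tiles with 3 to 9 CpGs and 22.9 for tiles with 10 to 19. With shifted borders the whole Sycp3 5′ end lay in 1 tile of 22 CpGs, which differed by 12.8 points, above 79.4% of tiles with 20 to 39 CpGs. Mael and Sycp3 thus changed sides of their class median with the borders.

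**Figure D3:**
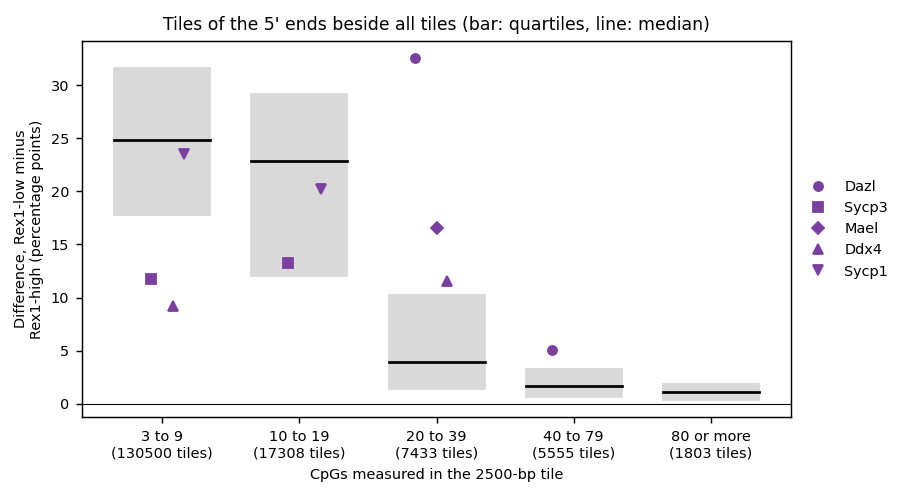
Difference in mean methylation (Rex1-low minus Rex1-high, percentage points, y axis) of 2500-bp tiles by the number of CpGs measured in them (x axis); grey bars span the quartiles and black lines mark the medians of all tiles of a class, and symbols are the tiles of the 5′ ends. The Dazl, Mael and Ddx4 tiles with 20 to 39 CpGs lie above the upper quartile of their class, and the Sycp1 and Sycp3 tiles lie below their class medians; with shifted borders Mael lies below and Sycp3 above the median of its class.

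Within the 4 placed promoter sequences, the CpGs could be sorted by the bases around them. Of the 48 usable CpGs, 8 lay in CCGG, the MspI site, and none in TCGA, the TaqI site. The CpGs in CCGG had a median of 57.9% in Rex1-high and 77.2% in Rex1-low, and the other 40 CpGs had medians of 11.3% and 22.6%. In Ddx4 the 4 CpGs in CCGG ranged from 46.0% to 70.1% in Rex1-high, while its other 23 CpGs ranged from 0 to 23.1%, without overlap. A CpG in a cut site is read at the end of fragments, where bases are filled in during library preparation, and the part of this step in these values was not tested.

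Leaving out the CpGs in CCGG, an alternative added after the data were seen, kept every one of the 4 promoters higher in Rex1-low. Mean methylation then went from 36.1% to 60.5% over 7 CpGs in Dazl, against 39.6% to 65.5% over all 8. In Ddx4 it went from 7.14% to 17.7% over 23 CpGs, against 14.4% to 26.3% over 27. In Mael it went from 7.84% to 22.7% over 6 CpGs, against 20.3% to 29.7% over 8, a difference of 14.9 instead of 9.40 points. In Sycp1 it went from 46.7% to 73.0% over 4 CpGs, against 54.5% to 76.9% over 5. Thus the measured CpGs of the Ddx4 and Mael promoters, apart from cut sites, averaged under 8% in Rex1-high, and those of Dazl and Sycp1 did not. These sets differed in place and depth. The 7 Dazl CpGs all lay downstream of the start, by 4 to 47 bases, whereas those of Ddx4 and Mael lay mostly upstream. The 4 Sycp1 CpGs had only 5 or 6 calls each in Rex1-high. The 2 Mael CpGs in CCGG also changed sign with the way calls were combined, at 57.9% and 50.7% as means over lines but 58.9% and 81.5% as pooled calls.

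**Figure D4:**
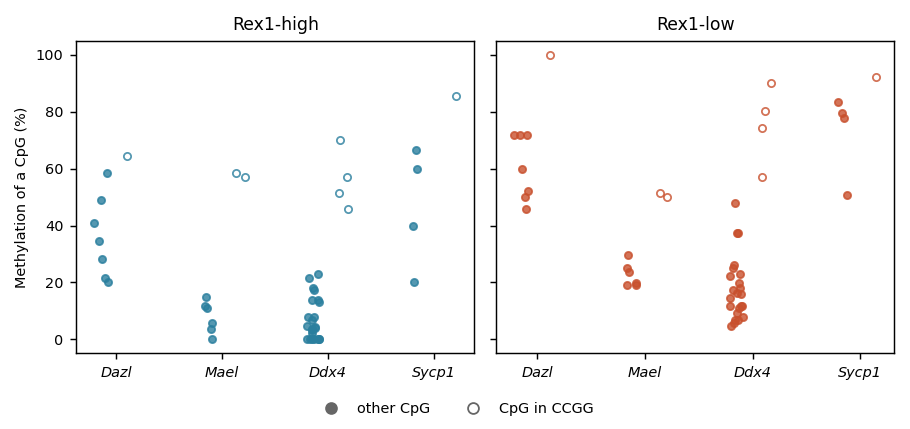
Methylation (%, y axis) of each usable CpG in the 4 placed promoter sequences in Rex1-high (left) and Rex1-low (right), with open circles for CpGs in CCGG and filled circles for other CpGs. In Ddx4 and Mael the open circles lie above all filled ones in both libraries.

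The E-box CACGTG, which reads the same on both strands, was found in 4 of the 5 promoter sequences, and in 7.15% of all 32851 promoter sequences of the same length in the table. Counted in bases from the start site, with negative numbers upstream, it began at -64 and -43 in Sycp3, -223 in Mael, -29 in Ddx4 and -94 in Sycp1, and Dazl held none. GCGGGAA, searched on both strands, began at -147 in Sycp3 and -136 in Ddx4, and was held by 4.60% of all promoter sequences. The central CpG of the E-box was measured in 2 genes. In Ddx4 (position 113442545) 0 of 20 calls were methylated in Rex1-high, which allows a level of up to 15%, and 4 of 62 in Rex1-low. In Sycp1 (position 102740115) 1 of 5 and 20 of 39 calls were methylated. Neither E-box CpG was called, and with 5 calls the Sycp1 value in Rex1-high has little precision. The CpG within GCGGGAA of Ddx4 (position 113442653) was also measured. It had 1 of 25 methylated calls in Rex1-high and 6 of 16 in Rex1-low, and was not called (Fisher's exact test, adjusted p = 0.0644).

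The same measure was taken for other germline genes from a list of 19, in the window from 2000 bp upstream to 500 bp downstream of a start site placed by CpG spacing. Of these 9 could be placed and 10 could not. All 9 windows were higher in Rex1-low, with medians over the 9 genes of 33.4% in Rex1-high and 59.6% in Rex1-low and a median difference of 24.3 points. Over all tiles the median difference was close to this, at 23.5 points, with median levels of 57.3% and 85.1%. By class it was 24.8 points in tiles with 3 to 9 CpGs, 22.9 with 10 to 19 and 3.93 with 20 to 39. The tile at the start site was called higher for 8 of the 9 and lower for none, where 75.5% of all tiles were called higher. By class, 5 of 5 such tiles with 20 to 39 CpGs were called (24.4% of all tiles of that class), 3 of 3 with 10 to 19 (76.2%) and 0 of 1 with 3 to 9 (82.4%).

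Among them Tex101, a sperm membrane protein, went from 51.0% to 83.7%, and Asz1, of the piRNA pathway, from 40.1% to 68.6%. The meiotic chromosome axis genes Hormad1 and Hormad2 went from 33.4% to 59.7% and from 19.4% to 34.9%. Slc25a31, a mitochondrial ADP/ATP carrier of germ cells, went from 35.3% to 59.6%, Taf7l, a germ cell relative of a general transcription factor subunit, from 49.2% to 75%, and Stk31 from 28.3% to 46.4%. The lowest window was that of Smc1b, a meiotic cohesin subunit, which went from 13.6% to 20.6%. Rpl10l, a ribosomal protein retrogene, went from 18.7% to 33.6%, and its start tile was not called, since it changed by 8.64 points (Fisher's exact test, adjusted p = 0.000204). In the same window Dazl went from 38.5% to 71.7%, Sycp1 from 44.8% to 73.0%, Mael from 26.0% to 42.6% and Ddx4 from 18.4% to 29.4%, levels that lay within the range of the 9 other genes in each library.

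**Figure D5:**
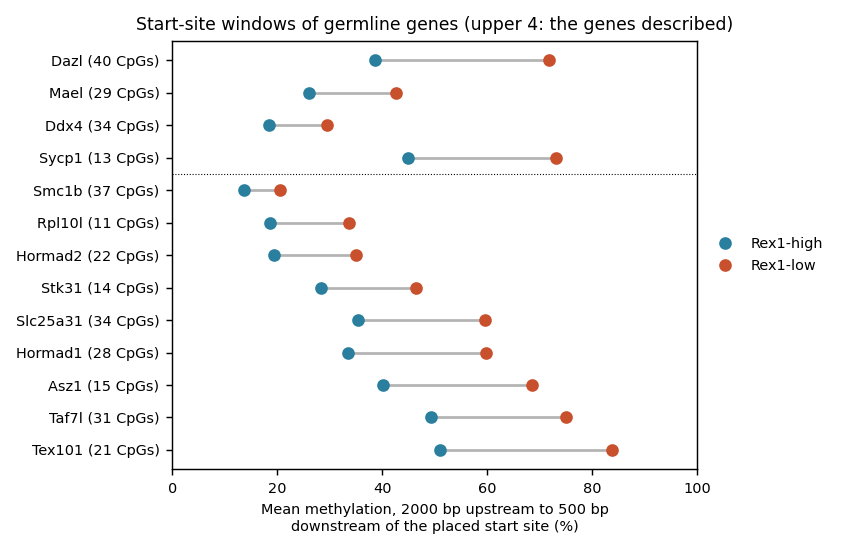
Mean methylation (%, x axis) in the window from 2000 bp upstream to 500 bp downstream of the placed start site in Rex1-high (blue) and Rex1-low (red), for 4 of the 5 genes (above the dotted line) and 9 other germline genes (below it), with the number of CpGs beside each name. Every window is higher in Rex1-low, and the levels range from 13.6% to 51.0% in Rex1-high.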

How the data were processed

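Methylation calls from RRBS came from 1 library each of sorted Rex1-high and Rex1-low ESCs, grouped by the cell population in the labels. Per the labels and the submitters' processing notes, the authors cut genomic DNA with TaqI and MspI, sequenced it on a HiSeq 2000 and processed the reads with Bismark 0.7 against mm9. The study's methods keep CpGs with at least 5 reads. The deposited files list methylated over all calls for each CpG, on 1 or 2 lines per position, and the authors' score column equals 1000 times that ratio, rounded; it was used only to check the calls.

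Here the minimum was applied to each line: lines under 5 calls were left out, and a CpG was used if a line remained in both libraries. Merging lines first, which is nearer to the study's rule, was an alternative and left 246 CpGs in the loci instead of 213. The level of a CpG, and the direction of a called one, is the mean over its lines, and that of a region the mean over CpGs. CpGs and 2500-bp tiles with at least 3 CpGs were tested on their summed calls (Fisher's exact test) and p-values adjusted genome-wide by Benjamini-Hochberg. Intervals are 95% Wilson and Newcombe. A limit at 0 is 3 calls of the total. The code was tested on simulated data. Scripts ran on Python 3.11.15 with numba 0.67.0, SciPy 1.17.1, pandas 2.3.3 and NumPy 2.4.6.

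Promoter sequences were placed where at least 8 listed positions fell in the sequence, at least 90% of them on its CpGs, and the next best offset, read among offsets that also reached 90%, had under 50% as many matches; that reading was adopted after the data were seen. Named are all 5 genes and, in each 5′ end, the CpG with the largest increase and the one with the most negative change; other CpGs named were picked after their values were seen. The genes, gene lists and motifs were chosen with earlier results of these data known. No mm9 genome or annotation was used, so exons and introns are not given.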

Additional observations from a re-analysis of the deposited data

How the results depend on the processing

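Of 122 values recomputed under other settings, 99 stayed near the value reported. That meant differences within counting error, counts of called CpGs within a set ratio, or tiles with the same call. None changed direction: all 57 recomputed differences of the 5′ ends and all 39 of the rest of the loci were higher in Rex1-low. Some of these values were not separate checks, because the setting kept the same CpGs. At the 5′ end of every gene, this held when the densest stretch was sought over the whole locus. It also held in the densest 2500 bp for Sycp3 and Ddx4, and in the window around the start site for Ddx4. The Cochran-Mantel-Haenszel test reused the difference of each tile, whose direction it thus could not change. The tally therefore overstates the number of separate checks. The values that moved were as follows, in points unless a count is named. For Dazl, the 5′ end gave 17.7 with a minimum of 1 call, 16.9 with lines merged before the minimum, 7.35 with pooled calls, 9.77 as the median over CpGs, 17.8 in the densest 2500 bp, 6.40 in the densest 500 bp, 33.1 in the window around the start site and 17.9 with the lower of the 2 lines of a CpG, an alternative added after the data were seen. The rest of the Dazl locus gave 26.4 with a minimum of 1 call and 28.7 with merged lines. The 5′ end gave 20.3 in Sycp3 with a minimum of 10 calls, and in Mael 23.7 with that minimum, 20.9 with merged lines and 22.6 as the median. In Ddx4 it gave 14.9 with a minimum of 20 calls and 7.49 with pooled calls. The rest of the locus gave 5.99 in Mael with merged lines (4 CpGs), 29.6 in Ddx4 with a minimum of 1 call and 15.7 in Sycp1 with a minimum of 20. CpGs called higher numbered 9 of the 58 that remained with a minimum of 20 calls, beside 19.3% of all CpGs. After thinning they numbered 9 of 213, beside 6.74% of all CpGs. In both settings the share in the loci was below the genome-wide one. With a minimum of 10, 1 CpG, at position 113442519 in Ddx4, was called lower (13 of 13 and 30 of 62 methylated calls). That minimum left out 1 of its 2 lines in Rex1-high, which were unlike. With both lines it had 14 of 20 methylated calls there, and the means over lines were 57.1% in Rex1-high and 57.2% in Rex1-low. This CpG also lies in CCGG. The Dazl tile not called was called with shifted tiles, at 15.9 points; the Cochran-Mantel-Haenszel test with CpGs as strata gave it an adjusted p of 0.000285, but its 5.04 points stayed under the size required. The cause of these shifts was not tested. Where fewer than 3 CpGs remained, no value was given. No paired analysis was possible because each state had 1 library and the labels carry no replicate numbers. Depth limits Sycp1 most, with a median of 6 calls per CpG in Rex1-high.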
